A study of Mus musculus with 11 samples.

Results

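This account covers 9 genes of the CC chemokine system in mice with obesity-related alcohol-induced acute pancreatitis (OA-AP): the ligands Ccl2, Ccl7, Ccl8, Ccl3, Ccl4, Ccl5, Ccl9 and Ccl11 and the receptor Ccr2. They were chosen by name, with earlier results of these data known. Each of the 9 had a row in the pancreas table of 54532 genes and in the adipose table of 46078 genes. Of these genes 45260 were present in both. CC chemokines are small secreted proteins that bind G protein-coupled receptors on leukocytes and set the direction in which these cells migrate. CCR2 is the receptor by which classical monocytes leave the bone marrow and enter inflamed tissue. In obesity, CCL2 from adipose tissue is well known for drawing monocytes that become tissue macrophages, and in acute pancreatitis injured acinar cells are a known early source of the same ligand.

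RNA was sequenced from whole pancreas and from epididymal adipose tissue of male wild-type C57BL/6 mice (C57BL/6J in the methods of the study) aged 16 weeks. Control mice ate a chow diet and received saline, whereas Model mice were fed high fat over 12 weeks before ethanol at 2 g/kg was given, in both groups as 2 intraperitoneal injections 1 h apart, and tissue was taken 12 h after the first of these. The pancreas was represented by 2 Control and 3 Model libraries and adipose tissue by 3 libraries of each group. Diet, ethanol and the resulting pancreatitis changed together between the groups, so their separate contributions cannot be told apart, and no drug-treated mice were analysed here. The labels number the libraries without saying that each is a separate mouse, so p-values measure only the spread between libraries, which may be in part technical. Nor do they say whether a pancreas and an adipose library of the same number came from 1 mouse.

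Library totals ran from 14188832 to 17238919 counts in the pancreas and from 20825177 to 27928097 in adipose tissue. The 8 acinar markers took 35.0% to 46.1% of the counts in the pancreas. Adipocyte markers summed to 24228 to 28301 CPM (counts relative to the scaled library total) in adipose tissue and to 23.9 to 70.4 CPM in the pancreas. The first 2 of these markers, Adipoq and Plin1, reached at most 0.0997 and 0.157 CPM in a pancreas library. Nearly all of the pancreas sum therefore lay in the rest of the list. In adipose tissue the acinar markers took at most 0.00149% in 5 libraries and 0.529% in Control replicate 2. That same library had the highest summed B cell marker level of the 6 adipose libraries. The third Model pancreas stood apart through its neutrophil markers, which summed to 103 CPM against 3.60 and 13.6 CPM in the other Model libraries. Where the members' values in the pancreas rest on the third library, they are also given without it.

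Of the 9 genes, 8 lie on chromosome 11 in a pair of clusters (GRCm38). The first holds Ccl2 (82035571 to 82037453), Ccl7 (82045712 to 82047525), Ccl11 (82057823 to 82062955) and Ccl8 (82115185 to 82116799), all on the plus strand. The second holds Ccl5 (83525778 to 83530518), Ccl9 (83572919 to 83578636) and Ccl3 (83647844 to 83649355) on the minus strand and Ccl4 (83662584 to 83664683) on the plus strand. Ccr2 lies on chromosome 9 (124101950 to 124113557, plus strand). Ccl2 lies within the span of the antisense gene Gm17268 but shares 0 exon bases with it, and the other 8 genes overlapped no other annotated gene.

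Promoter windows from RefSeq (GRCm38.p6), running from 250 bases before to 50 bases after the annotated transcript start, were given for 4 of the 9 genes. All 4 are shown, so that the windows of Ccl9 and Ccl3, which rose in adipose tissue, can be read beside those of Ccl8 and Ccr2, which were not called there. Each reads 5′ to 3′ on the strand of the gene, with motif matches in capitals. Ccl9 is at chr11:83578587-83578886 (minus), Ccl3 at chr11:83649329-83649628 (minus), Ccl8 at chr11:82114935-82115234 (plus) and Ccr2 at chr9:124101933-124102232 (plus).
Ccl9: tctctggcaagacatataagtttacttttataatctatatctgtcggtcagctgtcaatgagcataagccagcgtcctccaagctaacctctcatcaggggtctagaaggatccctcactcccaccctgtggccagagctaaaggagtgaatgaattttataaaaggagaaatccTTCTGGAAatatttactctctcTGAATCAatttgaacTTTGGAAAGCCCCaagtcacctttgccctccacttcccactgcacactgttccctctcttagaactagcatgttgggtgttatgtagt
Ccl3: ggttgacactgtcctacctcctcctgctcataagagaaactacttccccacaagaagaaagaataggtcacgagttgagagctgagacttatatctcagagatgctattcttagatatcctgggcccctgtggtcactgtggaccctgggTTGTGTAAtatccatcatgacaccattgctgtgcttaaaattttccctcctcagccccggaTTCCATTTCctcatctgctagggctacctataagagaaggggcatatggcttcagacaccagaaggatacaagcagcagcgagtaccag
Ccl8: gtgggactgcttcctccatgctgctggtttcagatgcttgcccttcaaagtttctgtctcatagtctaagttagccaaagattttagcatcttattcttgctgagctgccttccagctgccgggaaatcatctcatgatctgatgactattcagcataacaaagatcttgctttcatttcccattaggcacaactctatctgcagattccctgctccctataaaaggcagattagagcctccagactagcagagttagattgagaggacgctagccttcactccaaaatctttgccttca
Ccr2: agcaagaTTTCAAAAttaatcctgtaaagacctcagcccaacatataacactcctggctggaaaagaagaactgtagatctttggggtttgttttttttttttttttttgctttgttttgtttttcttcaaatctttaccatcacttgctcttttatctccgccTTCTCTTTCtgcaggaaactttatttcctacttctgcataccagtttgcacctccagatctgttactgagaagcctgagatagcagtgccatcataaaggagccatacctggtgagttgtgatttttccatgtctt

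Both strands were searched for the NF-kappaB consensus, TGANTCA (bound by AP-1), TTNNGNAA (a C/EBP core) and GAAANNGAA (the interferon-stimulated response element). The Ccl9 window held an NF-kappaB match starting 35 bases before the transcript start, an AP-1 match 53 bases before it and 2 C/EBP matches, 75 and 38 bases before it. The nearer of these C/EBP matches overlaps the NF-kappaB match, so the last capital run covers both. The Ccl3 window held a C/EBP match 100 bases and an interferon-response match 39 bases before the start, the Ccr2 window a C/EBP match 243 bases and an interferon-response match 86 bases before it, and the Ccl8 window none of the 4. Of all 32851 promoter windows, 5.80% held the NF-kappaB consensus, 7.81% the AP-1 motif, 40.7% the C/EBP core and 8.56% the interferon-response element. The Ccr2 gene as placed above starts at 124101950, near the beginning of its window. Most of that window, with its interferon-response match, therefore lies inside the annotated gene. A match is a run of letters and was not tested as a binding site.

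Model was compared with Control in each tissue by the quasi-likelihood test of edgeR, and a gene was called when its Benjamini-Hochberg adjusted p over all tested genes was under 0.05 and its fold change at least 1.5. In adipose tissue all 9 genes had enough counts to be tested; 5 were called higher (Ccl2, Ccl7, Ccl3, Ccl4 and Ccl9) and Ccl5 was called lower. Among all 15839 genes tested there, 25.1% were called in either direction, 12.1% as higher and 13.0% as lower. In the pancreas only 5 of the 9 genes passed the filter on low counts, and Ccl7 and Ccl9 were called higher. There 29.8% of 12884 tested genes were called, 16.2% as higher and 13.5% as lower. The median log2 fold change of the members was 2.07 in adipose tissue over 9 genes, against -0.01 over all genes tested. Unless counts are named, levels are CPM, with library totals scaled by the trimmed mean of M-values (TMM).

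**Figure D1:**
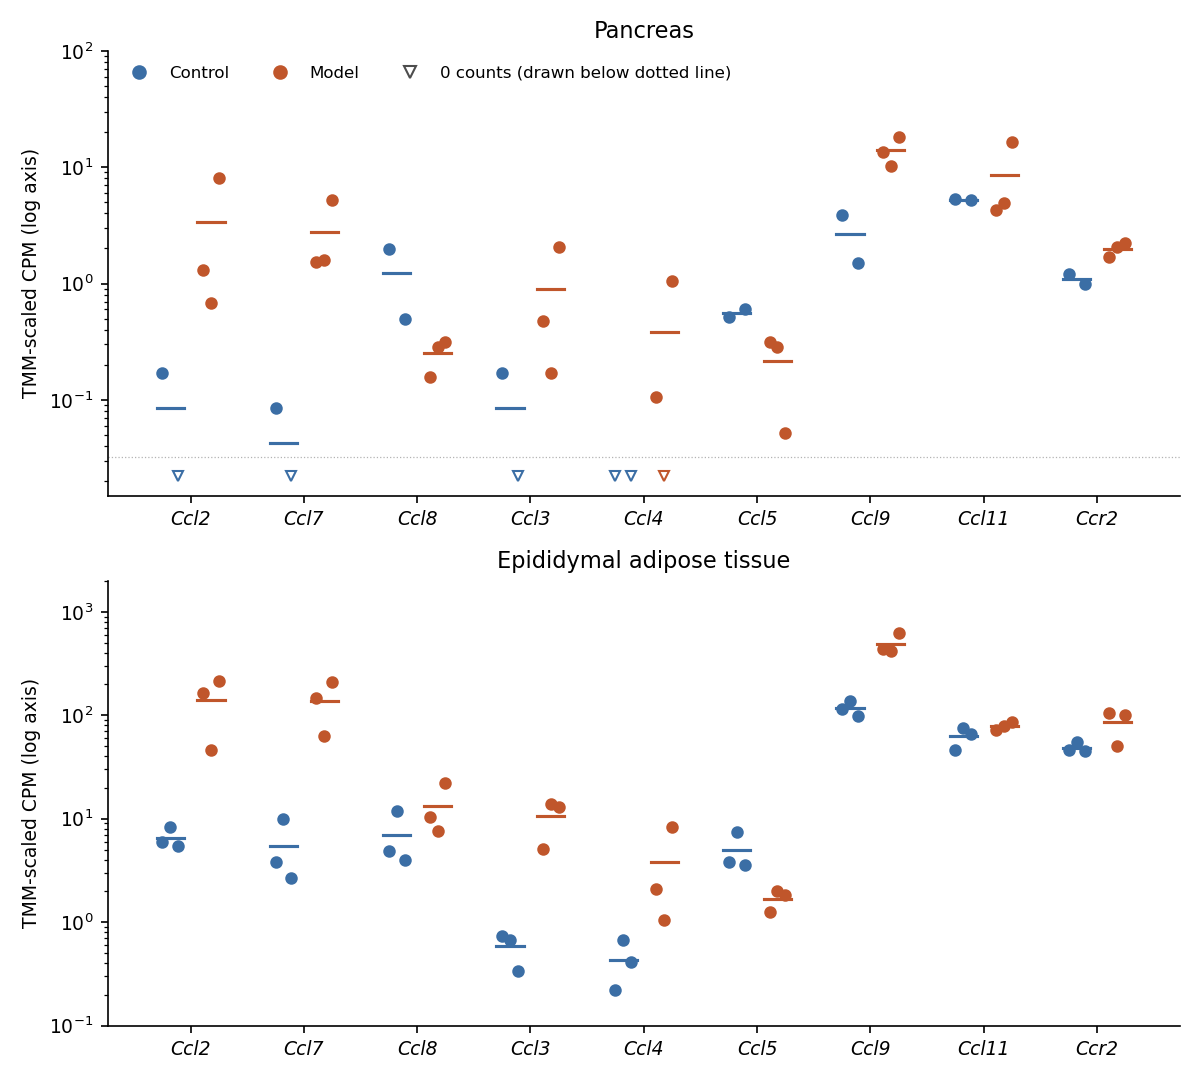
TMM-scaled CPM (log axis) of the 9 genes in every library of the pancreas (top) and of epididymal adipose tissue (bottom); circles are libraries, bars are group means, and open triangles mark libraries with 0 counts. In adipose tissue the Model libraries of Ccl2, Ccl7, Ccl3, Ccl4 and Ccl9 all lie above, and those of Ccl5 all below, the Control libraries.

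Ccl2 encodes monocyte chemoattractant protein-1, the main ligand of CCR2. In adipose tissue it stood at 5.98, 8.26 and 5.41 CPM in the 3 Control libraries and at 164, 46.5 and 212 CPM in the 3 Model libraries. The groups did not overlap, and the second Model library was well below the others. Means were 6.55 ± 1.51 CPM in Control and 141 ± 85.1 CPM in Model (SD, n = 3 in each group), and the fit gave a 21.5-fold rise (log2 4.43, SE 0.58; edgeR adjusted p = 0.00252). In the pancreas Ccl2 had 2 and 0 counts in Control and 25, 12 and 154 counts in Model. Every Model library was above both Control libraries, and most of the Model counts came from the third library. The ratio of the summed counts per scaled library size was 37.2, with a 95% interval of 10.2 to 309 that covers counting error only, and 11 (2.83 to 94) without the third Model library. Against the spread between libraries, Ccl2 was not called in the pancreas (fitted log2 fold change 5.08, SE 1.83; edgeR adjusted p = 0.0817). Without the third Model library it was called, with a log2 fold change of 3.29 (edgeR adjusted p = 0.00995), and it was likewise called without the second (5.55, adjusted p = 0.0351) and by DESeq2 (5.23, adjusted p = 0.0201).

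Ccl7, monocyte chemoattractant protein-3, is the neighbour of Ccl2 in the genome and also binds CCR2. Its adipose level was 3.84, 9.87 and 2.69 CPM in Control and 145, 63.4 and 208 CPM in Model. The order of the 3 Model libraries was that of Ccl2, and no Model library overlapped the Control range. This was a rise of 4.68 on the log2 scale (SE 0.65; edgeR adjusted p = 0.00293). In the pancreas Ccl7 had 1 and 0 counts in Control and 29, 28 and 99 in Model, equal to means of 0.0429 and 2.77 CPM. It was all but undetected in both Control libraries and present in every Model library. The count ratio was 60.8 (95% interval 10.8 to 2416, counting error only), or 33.8 (5.83 to 1359.6) without the third Model library, and the fit across all genes called it higher (log2 fold change 5.69, SE 1.16; edgeR adjusted p = 0.00841). It was also called without the third Model library (4.80, adjusted p = 0.000398). The call was lost when either Control library was left out, with adjusted p of 0.0646 without replicate 1 and 0.0843 without replicate 2 in fits where the lone Control is assumed to vary like the Model libraries.

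Ccl8, monocyte chemoattractant protein-2, lies in the same cluster. In adipose tissue it measured 4.91, 11.8 and 3.95 CPM in Control and 10.3, 7.69 and 22.2 CPM in Model. The ranges overlapped, since the second Control library exceeded 2 of the Model libraries. The log2 fold change of 0.96 (SE 0.54; edgeR adjusted p = 0.199) was not called. In the pancreas Ccl8 had 23 and 5 counts in Control and 3, 5 and 6 in Model, or 1.97 and 0.499 CPM against 0.158, 0.286 and 0.314 CPM, too few to pass the filter. All 3 Model libraries lay below both Control libraries on the CPM scale. With no filter on low counts it was called lower in the pancreas (log2 fold change -2.21, edgeR adjusted p = 0.0164). That fit treated its spread between libraries as known, so this p is too small. The change in adipose tissue minus that in the pancreas, tested as a tissue by condition term over 17046 genes, was 3.27 on the log2 scale (SE 1.04; edgeR adjusted p = 0.0459). Of all genes in that fit 20.6% were called, and Ccl8 was the only member among them. The call was lost with library totals as the scaling, without the filter, with a replicate block and when any of 8 of the 11 libraries was left out, among them the first Control pancreas, which held 23 of the counts (difference 1.92, adjusted p = 0.434).

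Ccl3, Ccl4 and Ccl5, the macrophage inflammatory proteins 1-alpha and 1-beta and RANTES, draw monocytes, macrophages and T cells, and Ccl3 and Ccl5 bind CCR1. They did not move as 1 group in adipose tissue. Ccl3 rose from 0.738, 0.678 and 0.340 CPM in Control to 5.13, 13.9 and 13.1 CPM in Model. The groups were far apart, and unlike Ccl2 the lowest Model library was the first. Ccl3 rose by 4.20 on the log2 scale (SE 0.49; edgeR adjusted p = 0.00154). Ccl4 rose from 0.221, 0.678 and 0.408 CPM to 2.07, 1.06 and 8.33 CPM. The groups did not overlap, with the second Model library less than 1 CPM above the highest Control. Its log2 fold change was 3.14 (SE 0.87; edgeR adjusted p = 0.0301), and the call was lost when any 1 of the 3 Control libraries was left out (adjusted p from 0.0543 to 0.0909) and without the filter on low counts (adjusted p = 0.103).

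Ccl5, which is made in large amounts by T and natural killer (NK) cells, went the other way. Its adipose level was 3.84, 7.46 and 3.54 CPM in Control and 1.24, 2.02 and 1.82 CPM in Model. Every Model library was below every Control library, and the log2 fold change was -1.54 (SE 0.36; edgeR adjusted p = 0.0149). The T and NK cell markers moved with it. Of 12 markers 10 were tested and 7 were called lower, and their summed level was 11.7 to 31.7 CPM in Control and 4.30 to 7.63 CPM in Model. The defining marker Cd3e fell by 1.16 on the log2 scale (edgeR adjusted p = 0.0308), a call lost when any library but the third Model was left out. All 4 B cell markers were also called lower, with sums of 6.05 to 38.6 CPM in Control and 1.45 to 2.32 CPM in Model. The second Control library was highest for Ccl5, for the T and NK markers and for the B cell markers; without it Ccl5 and Cd79a were still called lower. The part of these cells in the change of Ccl5 was not tested, and in whole tissue fewer cells of a type and less RNA per cell cannot be told apart.

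In the pancreas this family was near the limit of detection. Ccl3 had 2 and 0 counts in Control and 9, 3 and 39 in Model, a count ratio of 9.94 (95% interval 2.61 to 84.3, counting error only), which fell to 3.56 (0.793 to 32.8) without the third Model library. Ccl4 had 0 counts in both Control libraries and 2, 0 and 20 in Model, at least 2.86-fold higher when Control is set at 3 counts over the group, but without the third Model library only 2 counts were left, too few for a fold. Ccl5 had 6 and 6 counts in Control and 6, 5 and 1 in Model. For Ccl3 and Ccl4 the third Model pancreas held most of the counts, and for Ccl5 it was the lowest library. None of the 3 passed the filter. Without it Ccl3 and Ccl4 were called higher (edgeR adjusted p = 0.00612 and 0.0319) and Ccl5 was not called (adjusted p = 0.46). Both calls were lost when the third Model library was left out as well (adjusted p = 0.438 and 0.64). The unfiltered pancreas fit treated the spread between libraries as known for most members, these 3 among them. Its p-values are therefore too small, as for Ccl9 (edgeR adjusted p = 2.29e-19 against 0.00508 with the filter).

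Ccl9, macrophage inflammatory protein-1 gamma, is a CCR1 ligand of rodents that myeloid cells secrete constitutively. It was the only member called higher in both tissues under every alternative tried and without any 1 library. In adipose tissue it measured 115, 138 and 98.1 CPM in Control and 437, 415 and 619 CPM in Model. It had by far the most counts of the members, and its SD was the smallest relative to the mean among those that rose. Its log2 fold change was 2.07 (SE 0.20; edgeR adjusted p = 0.00076). In the pancreas it measured 3.86 and 1.5 CPM in Control and 13.4, 10.2 and 18.1 CPM in Model, from 15 to 347 counts per library. Again no Model library reached down to the Control range. Control averaged 2.68 ± 1.67 CPM (SD, n = 2) and Model 13.9 ± 4.01 CPM (SD, n = 3). The rise was 2.35 on the log2 scale (SE 0.41; edgeR adjusted p = 0.00508). The change in adipose tissue minus that in the pancreas was -0.29 on the log2 scale (SE 0.47; edgeR adjusted p = 0.726).

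Ccl11, or eotaxin, draws eosinophils through CCR3. Adipose tissue held it at 46.5, 75.8 and 65.8 CPM in Control and at 71.5, 78.5 and 86.2 CPM in Model. These ranges overlapped, and the log2 fold change of 0.33 (SE 0.18; edgeR adjusted p = 0.186) was not called. In the pancreas it measured 5.32 and 5.18 CPM in Control and 4.30, 4.92 and 16.4 CPM in Model. Model replicates 1 and 2 lay just below Control and only the third was above it. The fitted change was 0.70 on the log2 scale (SE 0.65; edgeR adjusted p = 0.449) with the third library and -0.24 without it (adjusted p = 0.454).

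Ccr2, the receptor of Ccl2 and Ccl7, was not called in either tissue. Its adipose level was 45.9, 54.5 and 45 CPM in Control and 106, 50.4 and 99.4 CPM in Model. The second Model library lay inside the Control range and the others were higher. The fitted change was 0.81 on the log2 scale (SE 0.27; edgeR adjusted p = 0.0542). It was called without the second Model library (1.08, adjusted p = 0.000866) and by DESeq2 (0.82, adjusted p = 0.00983). In the pancreas Ccr2 measured 1.20 and 0.997 CPM in Control and 1.68, 2.06 and 2.25 CPM in Model. All 3 Model libraries were above both Control libraries, from 10 to 43 counts, with a log2 fold change of 0.85 (SE 0.38; edgeR adjusted p = 0.122). With library totals as the scaling it was called (1.54, adjusted p = 0.0129).

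**Figure D2:**
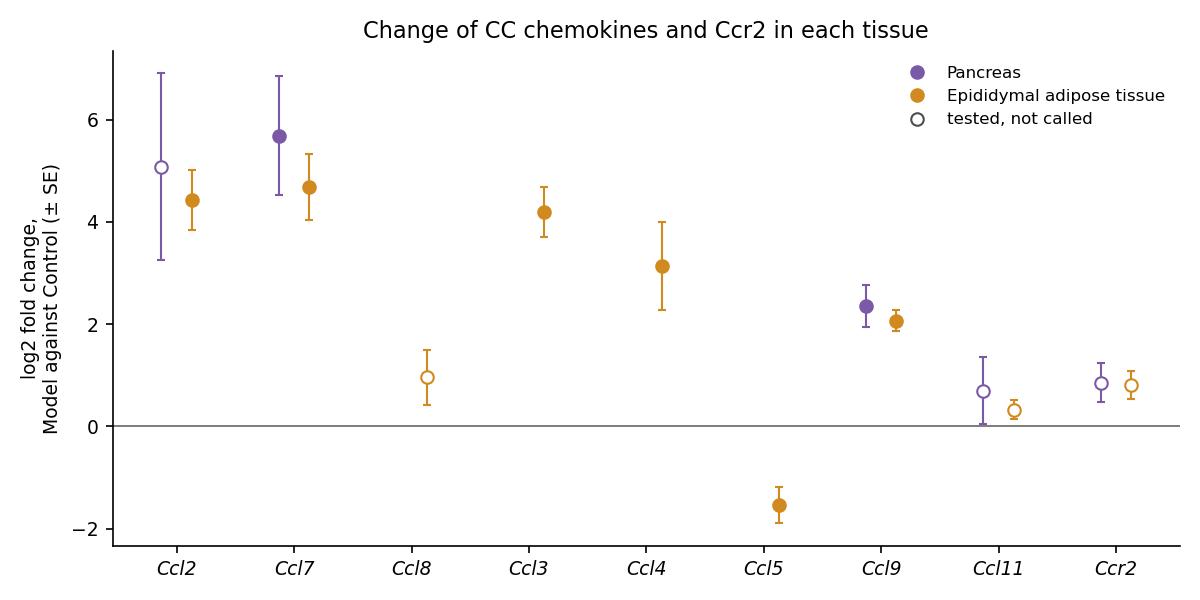
Log2 fold change of Model against Control (points) with its SE (bars) for each gene tested in the pancreas (purple) and in adipose tissue (orange); filled points were called. Ccl8, Ccl3, Ccl4 and Ccl5 have no pancreas point because they did not pass the filter on low counts, and Ccl9 changed by 2.35 in the pancreas and 2.07 in adipose tissue.

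Scaling mattered more in the pancreas than in adipose tissue. With library totals in place of TMM factors the median change over all tested pancreas genes moved from 0.04 to 0.75 (log2), and the share of called genes that were higher in Model moved from 54.5% to 92.0%. In adipose tissue the same change moved the median from -0.01 to -0.17 and the share from 48.1% to 32.1%. Members called in the pancreas then numbered 4, Ccl2 and Ccr2 being added, while adipose tissue still had 6. Of all 12884 genes tested in the pancreas 6349 were called in that fit, against 3834 with TMM factors. In adipose tissue 4250 of 15839 were called, against 3981.

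Levels of different genes were compared per length, as RPKM, the CPM divided by the deposited gene length in kilobases. For Ccl2 this length, 1138 bases, equals all its annotated exon bases, and it need not be that of the transcript present. The order of genes and the ligand shares depend on these lengths. In Control adipose tissue Ccl11 led with a mean of 57.9 ± 13.7 RPKM (SD, n = 3), followed by Ccl9 at 38.4 ± 6.50, and their ranges overlapped. Ccl8 (13.5), Ccr2 (7.17), Ccl7 (6.82), Ccl2 (5.76) and Ccl5 (5.15) came next, neighbours among these overlapping in range, and Ccl3 (0.764) and Ccl4 (0.661) were lowest. In Model adipose tissue Ccl7 led with 173 ± 90.3 RPKM, then Ccl9 with 161 ± 36.7, Ccl2 with 124 ± 74.8 and Ccl11 with 72.8 ± 6.79, each overlapping the next in range. Below them, and below the range of Ccl11, came Ccl8 (26.2), Ccl3 (14), Ccr2 (12.6), Ccl4 (5.79) and Ccl5 (1.76). Ccl5 was the seventh of 9 genes in Control and the last in Model.

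In the pancreas the order began with Ccl11 at 4.85 RPKM in Control and 7.88 RPKM in Model. Ccl8 came next in Control (2.42 RPKM) and was the seventh in Model (0.494 RPKM). Ccl9 was the third in Control at 0.880 RPKM and the second in Model at 4.57 RPKM. Ccl7 (3.45 RPKM), Ccl2 (2.94 RPKM) and Ccl3 (1.17 RPKM) followed in Model, and all neighbours in that order overlapped in range.

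As a share of the summed RPKM of the 8 ligands, Ccl2 made up 4.19% to 4.97% in the Control adipose libraries and 25.4%, 11.2% and 23.2% in the Model libraries. Ccl7 made up 2.96% to 7.35% in Control and 32.0%, 21.6% and 32.3% in Model. Ccl11 made up 40.7% to 53.5% of the sum in Control and 9.91% to 19.8% in Model, while its own level was not called. For Ccl9 the shares overlapped, at 26.9% to 35.8% in Control and 25.3% to 37.3% in Model. In the pancreas Ccl8 made up 34.9% and 14.2% of the sum in Control and 1.55% to 4.84% in Model.

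**Figure D3:**
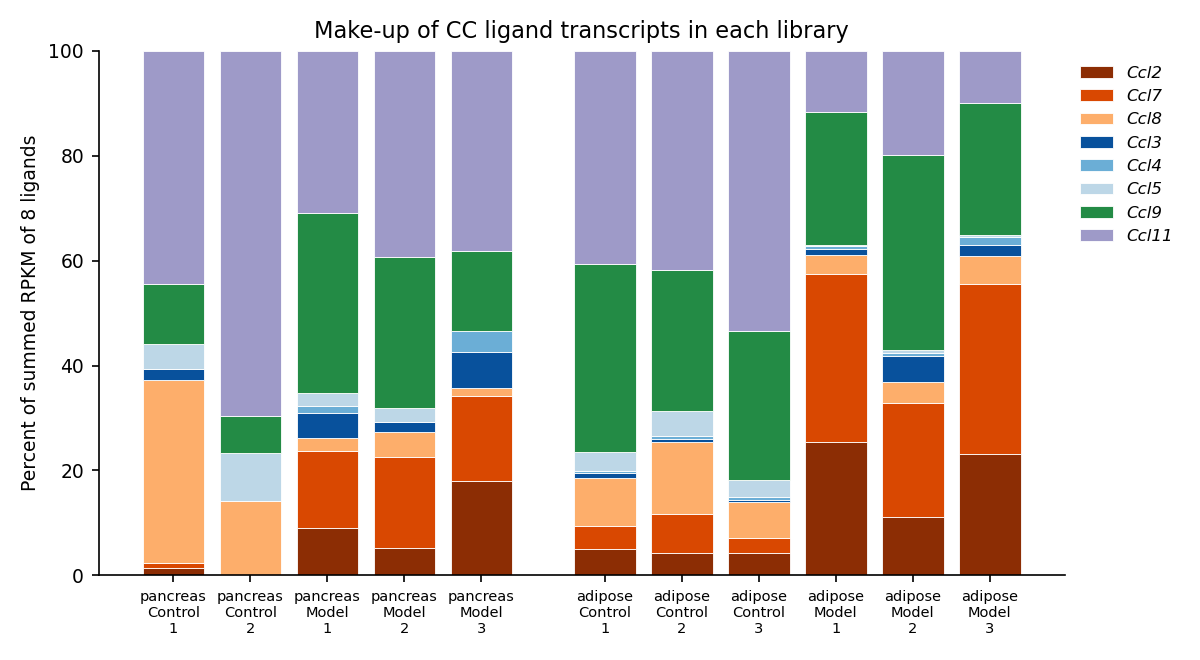
Percent of the summed RPKM of the 8 CC ligands taken by each ligand in every library (stacked bars, each adding to 100%). In adipose tissue Ccl2 and Ccl7 take at most 4.97% and 7.35% in Control and at least 11.2% and 21.6% in Model, and Ccl11 takes less in Model.

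Genes whose pattern was most like that of Ccl2 were ranked over the 11 libraries by the root mean square difference of log2 CPM, each gene centred on its mean, among 17046 genes. Ccl7 was nearest (0.60), followed by Arg1, which encodes the arginase of alternatively activated macrophages (0.62), Chil3, a chitinase-like protein of myeloid cells (0.86), Ppbp, a CXC chemokine of platelets (0.93), and Clec4e, the myeloid receptor Mincle (0.95). The measure mixes the gap between the tissues with the change between the groups and is a description only.

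The rest of the CC system was read from 14 further ligands, 9 further receptors and 4 atypical receptors, which bind chemokines without the usual signalling. In adipose tissue 18 of these 27 genes were tested, 7 were called higher and 3 lower, or 10 in all. Of all genes tested there 25.1% were called, 12.1% as higher and 13.0% as lower. Among ligands, Ccl12, a rodent CCR2 ligand in the first chromosome 11 cluster, was at 0.923, 5.59 and 0.681 CPM in Control and 16.3, 15.6 and 33.7 CPM in Model. The second Control library was its highest Control, as for every member except Ccl3. Ccl12 rose by 3.22 on the log2 scale (SE 0.79; edgeR adjusted p = 0.0206), and the call was lost without Control replicate 1 (adjusted p = 0.06), Control replicate 3 (0.0518) or Model replicate 3 (0.0645) and without the filter (0.114). Ccl6, a CCR1 ligand beside Ccl9, rose from a mean of 249 to 638 CPM (log2 fold change 1.36, edgeR adjusted p = 0.00352), and Ccl17, a CCR4 ligand of dendritic cells, rose from 0.535 to 3.03 CPM (2.49, adjusted p = 0.00213). The homeostatic ligands Ccl21a, which guides cells carrying CCR7 to lymphatics, and Ccl27a, a CCR10 ligand, fell (log2 fold changes -1.44 and -1.22; edgeR adjusted p = 0.00599 and 0.00355).

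Of the receptors, Ccr1 was called higher and Ccr3 lower in adipose tissue. Ccr1, a receptor for Ccl3, Ccl6 and Ccl9, stood at 8.41, 12.8 and 8.07 CPM in Control and 57.7, 35.2 and 59.5 CPM in Model, a log2 fold change of 2.38 (SE 0.27; edgeR adjusted p = 0.00151). Its lowest Model value was in the second library, as for every member except Ccl3, Ccl5 and Ccl11, and the groups did not overlap. Ccr3, the eotaxin receptor of eosinophils, was called lower from 25, 34 and 20 counts to 7, 2 and 9 (log2 fold change -1.72, edgeR adjusted p = 0.0376), and the call was lost when any 1 of the 6 libraries was left out (adjusted p from 0.0514 to 0.102). Eosinophil and mast cell markers summed to 35.4 to 43.0 CPM in Control and 13.8 to 23.0 CPM in Model, with 2 of 4 tested called lower. The called ones were mast cell genes. Siglecf, the only eosinophil marker tested, was not called (log2 fold change -1.01, edgeR adjusted p = 0.168). It averaged 0.689 CPM in Control and 0.339 CPM in Model. The part of these cells in the change of Ccr3 was not tested.

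The atypical receptors Ackr4, which takes up CCL19 and CCL21, and Ackr1, the Duffy antigen of venular endothelium, were called higher in adipose tissue. Ackr4 measured 3.51, 3.77 and 4.56 CPM in Control and 49.6, 27.7 and 38.3 CPM in Model (log2 fold change 3.28, SE 0.24; edgeR adjusted p = 0.00037). Ackr1 rose from a mean of 6.66 to 27.4 CPM (2.04, adjusted p = 0.00261). Both are uncertain in part, since Ackr4 shares 479 of its 5380 exon bases with Acad11 on the other strand and Ackr1 shares 361 of 1405 with Cadm3, and the strand setting of the counting is not given in the sources used here.

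**Figure D4:**
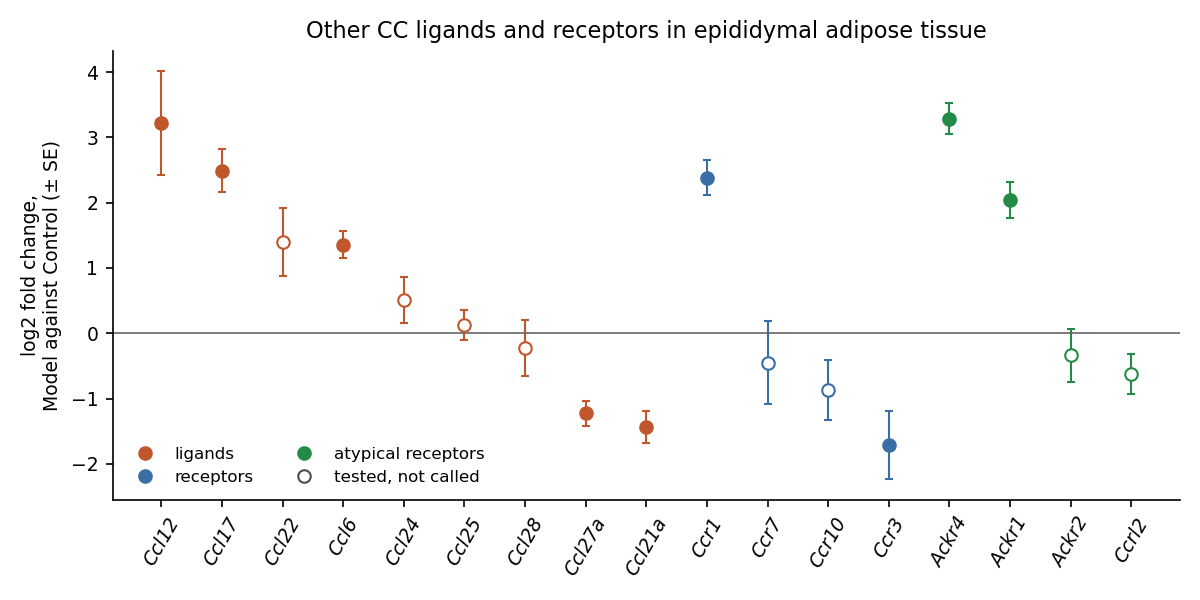
Log2 fold change of Model against Control in adipose tissue (points) with its SE (bars) for tested CC ligands, receptors and atypical receptors outside the 9 members; filled points were called. Ccl12 leads the ligands at 3.22, Ccr1 leads the receptors at 2.38, and Ackr4 stands highest of those drawn at 3.28.

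In the pancreas 8 of the 27 genes were tested and 2 were called, both higher. Of all genes tested there 29.8% were called, so 2 of 8 lies near that share. Ccl6 had 4.81 and 1.99 CPM in Control and 16.2, 14.2 and 27.6 CPM in Model, a log2 fold change of 2.48 (SE 0.45; edgeR adjusted p = 0.00727), so that it rose beside its neighbour Ccl9 in this tissue too. Without Control replicate 2 its adjusted p was 0.0501. Ccrl2, an atypical receptor that binds chemerin, had 2.40 and 2.39 CPM in Control and 7.19, 7.27 and 6.22 CPM in Model (log2 fold change 1.52, SE 0.24; edgeR adjusted p = 0.00255). Its libraries were close within each group and well apart between them. In adipose tissue Ccrl2 was not called (-0.63, adjusted p = 0.15), and the change there minus that in the pancreas was -2.16 (SE 0.43; edgeR adjusted p = 0.00432). Ackr4 was the other gene outside the members whose change differed, by 4.36 (SE 0.77; edgeR adjusted p = 0.00221), with 5 and 5 counts in Control pancreas and 5, 6 and 1 in Model. Ccr1 rose in every Model pancreas without being called (0.429 and 0.399 CPM against 1.21, 0.973 and 5.49 CPM; log2 fold change 2.61, edgeR adjusted p = 0.0788).

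The signal relay behind these receptors was read from 22 genes of G proteins, kinases, lipid enzymes and exchange factors. In the pancreas 19 were tested, 5 were called higher and 1 lower. Plcb3, a phospholipase C driven by G protein subunits, rose from a mean of 11.5 to 34.3 CPM (log2 fold change 1.58, edgeR adjusted p = 0.000433), and Grk2, a kinase that desensitises the receptors, rose from 23.6 to 47.8 CPM (1.02, adjusted p = 0.00104). Ptk2b, a calcium-sensitive tyrosine kinase, and Pik3r5, a regulatory subunit of PI3K-gamma, rose by 1.06 and 1.67 on the log2 scale (edgeR adjusted p = 0.00913 and 0.0118), and both calls were lost without either Control library. In adipose tissue 22 were tested, 3 were called higher and 3 lower. Pik3r5 rose there too (1.17, adjusted p = 0.00113), as did Gnai3, an inhibitory G protein subunit (0.78, adjusted p = 0.00144), whereas Grk3 and Rgs2, which damp G protein signalling, fell by 1.09 and 1.79 on the log2 scale (edgeR adjusted p = 0.0131 and 0.0157). The call of Rgs2 was lost without Control replicate 3 (adjusted p = 0.0555) and without the filter (0.0837). The shares called in this list, 6 of 19 and 6 of 22, lie near the 29.8% and 25.1% of all genes.

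Of the leukocyte markers in adipose tissue, those of neutrophils and most called ones of monocytes and macrophages were higher in Model. All 6 tested neutrophil markers were called higher, S100a8 and S100a9 by 4.65 and 4.59 on the log2 scale, and their sum was 6.94 to 12.8 CPM in Control and 180 to 198 CPM in Model. Of 12 monocyte and macrophage markers 6 were called higher and 1 lower, with sums of 777 to 933 CPM in Control and 1027 to 1479 CPM in Model. The defining markers split, since Csf1r fell (log2 fold change -0.81, edgeR adjusted p = 0.0134) and Cd68 rose (0.64, adjusted p = 0.0413), the latter call being lost with library totals and without Control replicate 1, Control replicate 3 or Model replicate 3. In Model replicates 1, 2 and 3 the neutrophil sums were 182, 180 and 198 CPM. The monocyte and macrophage sums were 1299, 1027 and 1479 CPM in the same order. Most fibroblast markers went the other way, with 4 of 5 called lower. Their sums were 2354 to 2888 CPM in Control and 1299.7 to 1664 CPM in Model. The defining markers split here too, since Col1a1 fell by 1.07 on the log2 scale and Pdgfra was not called (0.39). The part of these cells in the changes of the chemokines was not tested.

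In the pancreas edgeR called 0 of 7 tested neutrophil markers, with 1 higher at an unadjusted p under 0.05, and DESeq2 called 5 higher. Their sum was 1.20 and 1.99 CPM in Control and 13.6, 3.60 and 103 CPM in Model, and the third Model library, highest here, was also highest for Ccl2, Ccl7, Ccl3, Ccl4, Ccl9, Ccl11 and Ccr2. Without it 3 members were called in the pancreas, Ccl2, Ccl7 and Ccl9. Of all 12884 genes tested there, 4282 were then called, against 3834 with that library. Of 11 tested monocyte and macrophage markers edgeR called 0 higher and 3 lower (3 higher at an unadjusted p under 0.05, and 2 by DESeq2), and Csf1r fell by 1.16 on the log2 scale (edgeR adjusted p = 0.0197), a call lost with library totals (-0.46, adjusted p = 0.293) and without Control replicate 1 or Model replicate 1. Cd68, the other defining marker, was not called (log2 fold change 0.09, edgeR adjusted p = 0.883). The summed monocyte and macrophage markers were at 65.5 and 33.7 CPM in Control and 53.3, 53.1 and 111 CPM in Model. T and NK cell markers summed to 1.29 and 1.30 CPM in Control and 0.21 to 0.314 CPM in Model. B cell markers summed to under 1 CPM in every library. Of the 8 acinar markers 6 were called lower, and the sum was 564464 to 660863 CPM in Control and 265552 to 344739 CPM in Model. The part of acinar RNA and of these cells in the results was not tested.

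**Figure D5:**
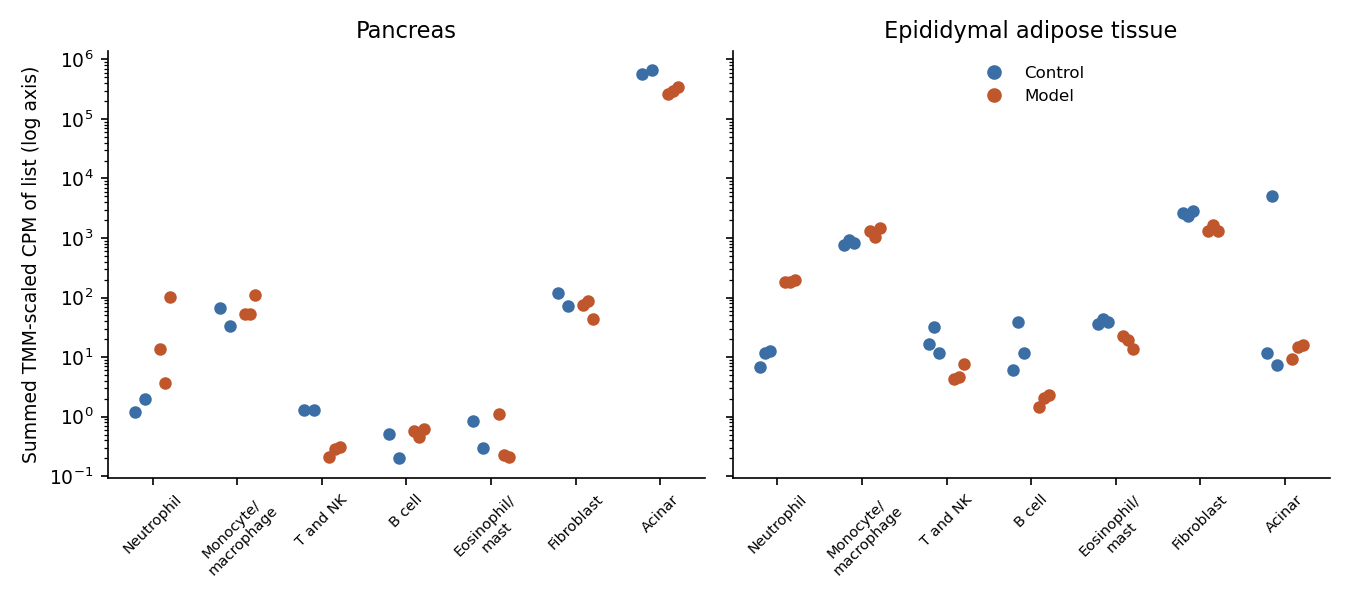
Summed TMM-scaled CPM (log axis) of 7 marker lists in each library (points), Control in blue and Model in orange, for the pancreas (left) and adipose tissue (right). In adipose tissue the neutrophil sums part into 6.94 to 12.8 and 180 to 198 CPM, and the acinar sum of 1 Control library, replicate 2, stands far above the other 5.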

How the data were processed

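RNA-seq of pancreas (2 Control, 3 Model) and epididymal adipose tissue (3 and 3) was analysed from the raw gene counts deposited by the authors, 1 table per tissue. Per the labels and the methods of the study, reads were trimmed (Trim Galore 0.6.6, fastp 0.20.1), aligned to GRCm38 with STAR and counted with featureCounts 2.0.1; the annotation release and the strand setting are not given in the sources used here. Gene positions came from GENCODE M21 and matched those in the tables for each gene whose locus is given. The deposited gene lengths gave RPKM.

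Each tissue was fitted in edgeR 4.0.16 (R 4.3.3; filterByExpr, TMM, robust quasi-likelihood), with Benjamini-Hochberg adjustment over all tested genes; calls needed an adjusted p under 0.05 together with a 1.5-fold change. The tissue by condition term was fitted over all 11 libraries. Alternatives were DESeq2 1.42.0, its size factors, library totals, no filter, at least 10 counts in every library, a fold change of 2, no fold threshold, a replicate block and leaving out each library; TMM factors computed without abundant acinar genes, and count ratios and unfiltered fits without the third Model pancreas, were added after seeing the data. The fits were tested on simulated counts. Count ratios carry exact 95% intervals, and a group at 0 was set at 3 counts.

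The members and gene lists were chosen with earlier results of these data known. Named genes are the members, every other CC gene called or differing between tissues, the 4 called relay genes with the smallest p per tissue, the first 2 markers of a list and the 5 genes most like Ccl2; Ccr1 in the pancreas was named after its values were seen. Replicates differed by more than counting noise (lowest chi-square per degree of freedom 7.24). Values of some listed genes outside the members are not reported here, although the list counts and sums include them.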

Additional observations from a re-analysis of the deposited data

Results flagged for a closer look

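For Ccl8, Ackr4 and Ccrl2 the tissue by condition term of edgeR was called, that is, the change from Control to Model differed between adipose tissue and the pancreas. Ccl8 changed by 3.27 more on the log2 scale in adipose tissue, from an adipose change that was not called and a pancreas that held 28 counts in Control and 14 in Model; the call was lost under most alternatives. Ackr4 changed by 4.36 more in adipose tissue, where all 3 Model libraries were above all 3 Control libraries. Ccrl2 had a difference of -2.16, the change being larger in the pancreas.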

How the results depend on the processing

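Low counts limit the pancreas most: 4 of the 9 genes could not be tested there and Ccl2 and Ccl7 had at most 2 counts in a Control library. The count of 2 members called in the pancreas became 4 with library totals, 5 without the filter, 1 with at least 10 counts in every library, and 1 to 3 when a library was left out; the 2 other CC genes called there became 1 to 3. The count of 5 rests on unfiltered p-values that are too small, as given for Ccl9 above. With at least 10 counts in every library Ccl7 was not tested in the pancreas, so the count of 1 is not a lost call. In adipose tissue the 6 members stayed between 5 and 7 and the 10 other CC genes between 8 and 12. The 1 member that differed between tissues became 0 with library totals, without the filter and with the replicate block or the block within condition. It was also lost in most fits that left out 1 library. With at least 10 counts in every library it was not tested. Calls over all genes moved too, though not always as those of the members did. In the pancreas they went from 3834 of 12884 genes to 6349 with library totals. Without the filter 4487 of 23572 were called, and with at least 10 counts in every library 3493 of 10652. Fewer were called without either Control library. For the difference between tissues calls went from 3507 to 6527 with library totals and 2156 with the block within condition. The cause of these shifts was not tested.

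Changes of direction touched only values that were not called. Ccl11 in the pancreas was -0.19 with the replicate block and ranged from -0.24 to 1.02 when a library was left out. Of the differences between tissues, Ccl11 was 0.016 with the block and -0.71 to 0.51 when a library was left out. The same range was -6.29 to 0.99 for Ccl2, -4.61 to 2.38 for Ccl3, -1.17 to 0.22 for Ccl9, -0.28 to 0.16 for Ccr2 and -0.66 to 0.19 for Ccl5. Within a tissue, Control and Model libraries of the same number did not deviate together (correlations from -0.16 to 0.056), so the numbers were not taken to pair them. Between tissues the correlations of same-numbered libraries ran from -0.05 to 0.13, and whether these share a mouse remains unknown. The block gave 3 members in the pancreas, Ccl2 being added, and 6 in adipose tissue. Of all genes tested it called 4099 of 12884 in the pancreas and 3477 of 15839 in adipose tissue. Over 688 values of single genes under an alternative, 607 kept direction and side of the threshold, 8 gained a call, 59 lost one and 14 changed direction.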
